A study of Mus musculus with 2 samples.

Results

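The TNF superfamily comprises ligands related to tumour necrosis factor and the receptors that bind them, and its transcripts were followed here in mouse lung with and without exposure to PM2.5, airborne particles of up to about 2.5 micrometres. The members were the protein-coding genes of GENCODE M21 whose symbols start with Tnfsf or Tnfrsf, plus Tnf, Lta, Ltb, Ltbr, Fas, Fasl, Cd27, Cd40, Cd40lg, Cd70, Ngfr and Eda2r. This rule gave 44 genes, of which 43 (17 ligands and 26 receptors) had an identifier among the 37315 in the count files. Tnfsf12, the gene of the ligand TWEAK, was the other member and is not analysed here as a gene of its own.

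The study held 1 library from lung of control C57BL/6 mice and 1 from lung of C57BL/6 mice exposed to PM2.5, both made from mRNA with a stranded kit. Both titles contain 12W, a code left unexplained in the labels, and neither dose, route, sex, age nor the number of animals per library is given. The control library held 62788045 counts and the PM2.5 library 57435027. With 1 library on each side nothing could be tested: every ratio below is PM2.5 over control for these 2 libraries, and its bracketed 95% interval covers counting error only, not variation between animals. Lung markers were present in both. The 11 genes of the alveolar type 2 list summed to 26764 CPM (the usual count unit scaled for library size, here with TMM factors) in the control and 29369 CPM in the PM2.5 library, the 10 of the type 1 list to 10050 and 7264 CPM, and none was at 0.

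Ligands of this family are mostly membrane proteins that assemble as trimers and can be cut from the cell surface, and their receptors carry cysteine-rich repeats outside the cell. Receptors with a death domain, such as the first TNF receptor and Fas, can recruit adaptors that lead either to caspase activation or to NF-kB. Those without one bind TRAF adaptors, which act on survival, costimulation and inflammatory genes. In the lung, macrophages are a known source of TNF, and TNF receptors are found on epithelium, endothelium and leukocytes.

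Several ligands and lymphocyte receptors of low level were higher in the PM2.5 library, while the 2 most abundant receptors of the family per length, Tnfrsf1a and Ltbr, were lower. In RNA from bulk lung, a different number of cells of a type and a different amount of RNA per cell cannot be told apart. Higher and lower mean here that the ratio reached 1.5-fold in that direction and its counting interval left out 1. Measured means a mean over both libraries of at least 1 CPM. Of the 43 members, 34 were measured: 12 were higher, 4 lower and 18 neither. Among all 14518 measured genes 14.9% were higher and 19.1% lower. At 2-fold 7 members were higher and 1 lower, beside 7.25% and 6.04% of all measured genes. The 12 higher members were 6 ligands and 6 receptors, and all 12 kept that call under each of the 5 library scalings tried. Of the 4 lower members, all receptors, only Tnfrsf21 did so. The median log2 ratio was 0.63 for the 11 measured ligands and -0.11 for the 23 measured receptors, beside -0.09 for all measured genes. Scaling by library totals moved the last of these by 0.23, to 0.14, and then the receptor median was 0.12. The ligand median was 0.38 with the trend of ratios with transcript length removed and 0.16 among members with a mean of at least 10 CPM, and the summed level of the 17 ligands was 264 and 266 CPM. Among the 31 members at 1 CPM or more in each library, 10 were higher and 4 lower, beside 12.8% and 19.0% of all genes filtered in that way. Tnf and Fasl passed the filter only through the PM2.5 library, so their ratios had to be above 1. Ngfr passed only through the control library, so its ratio had to be below 1.

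**Figure D1:**
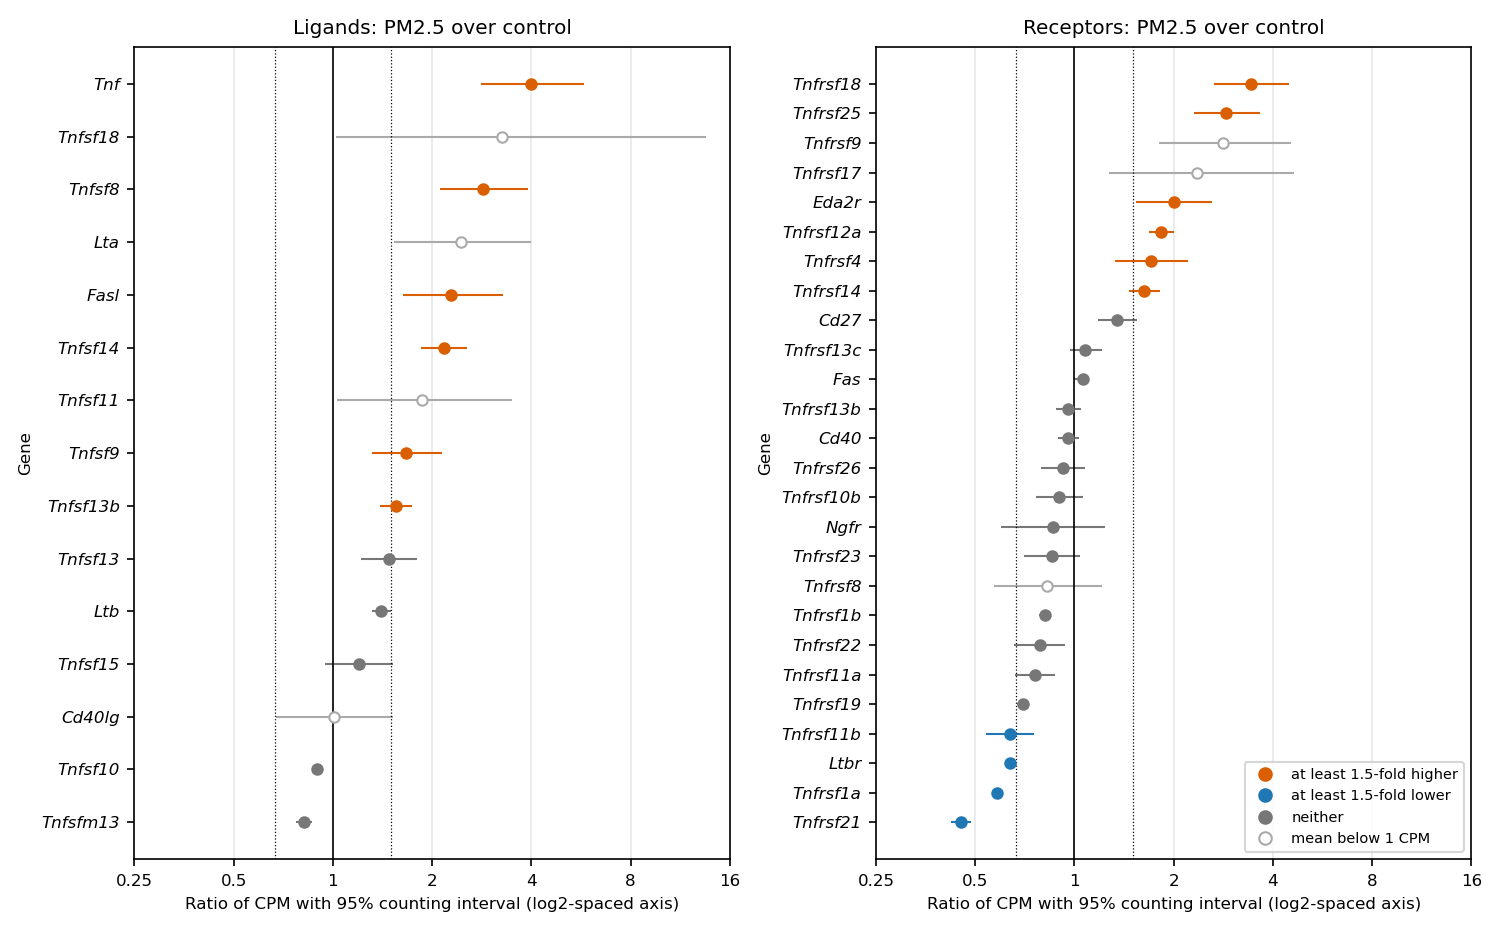
Ratio of CPM, PM2.5 over control, for ligands (left) and receptors (right) with 95% counting intervals on a log2-spaced axis. Dotted lines mark 1.5-fold, and open symbols are members with a mean below 1 CPM. No measured ligand lies in the lower class, while receptors run from Tnfrsf21 at 0.453 to Tnfrsf18 at 3.43. Tnfsf4 and Cd70, with no control count, are not drawn.

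Transcript length went with these ratios. Across the 34 measured members, Spearman's rho between the log2 ratio and merged exon length was -0.51, and it was -0.31 across 14387 measured genes. These points share 2 libraries and genes are not independent replicates. By deciles of length, the median log2 ratio of all genes ran from 0.34 for the shortest to -0.39 for the longest. With this trend removed, 9 members were higher, without Tnfsf9, Tnfrsf4 and Tnfrsf14, and 4 were lower, beside 14.2% and 16.6% of all measured genes. The higher members were of low level: per kilobase of exon, the control library held from 0.252 CPM of Eda2r to 7.01 CPM of Tnfrsf12a, against 84.6 CPM of Tnfrsf1a. Some other members of low level were not higher, such as the lower Tnfrsf11b at 2.12 CPM and Tnfsf15, which was neither, at 0.654 CPM.

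**Figure D2:**
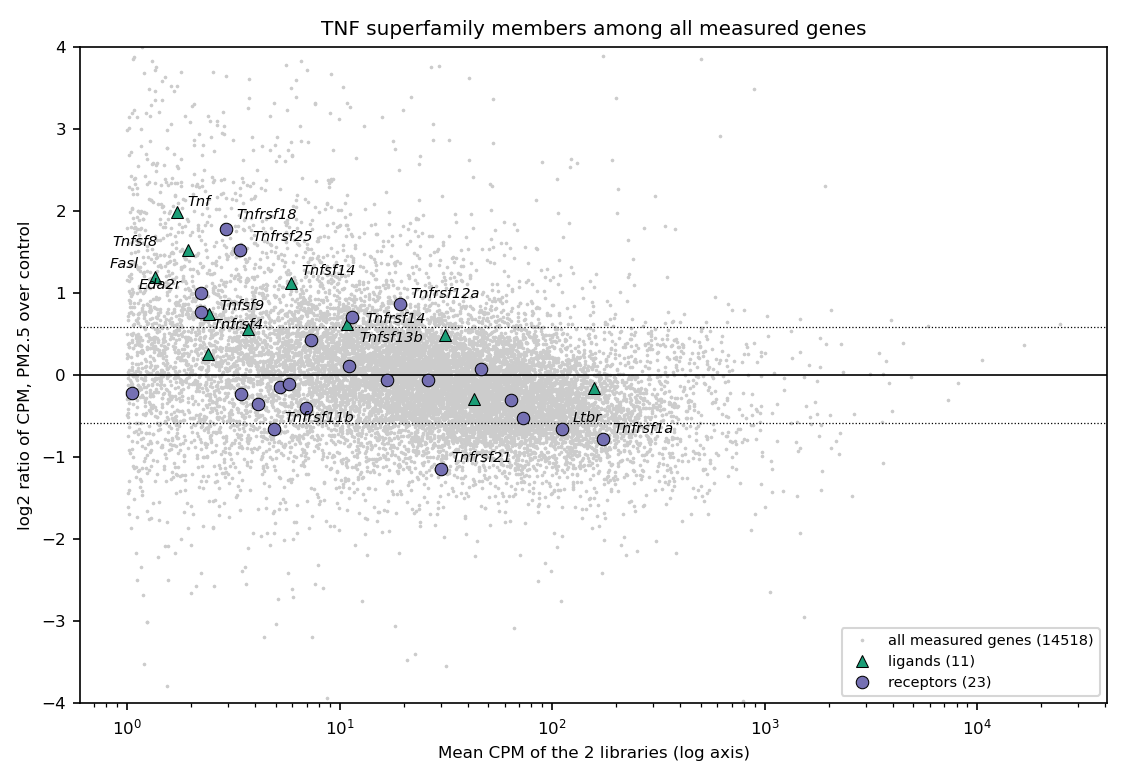
log2 ratio of CPM, PM2.5 over control, against the mean CPM of both libraries (log axis) for all measured genes in grey, with 11 ligands as triangles and 23 receptors as circles. Members in the higher class sit mostly at low CPM and the lower class includes Tnfrsf1a and Ltbr at the right. Dotted lines mark 1.5-fold, and 34 genes lie outside the plotted range.

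Tnf, the founding cytokine of the family (ENSMUSG00000024401, GRCm38 chromosome 17, 35199381 to 35202007, minus strand), gave 40 counts without PM2.5 and 171 with it. That is 0.690 and 2.75 CPM, a ratio of 3.98 (2.81 to 5.77), the highest among the measured members. Tnf passed the filter only through the PM2.5 library, so its ratio had to be above 1. Of the 31 members at 1 CPM or more in each library, Tnfrsf18 had the highest ratio, 3.43. Tnf lies between the lymphotoxin genes: Lta begins 1.16 kb beyond it and Ltb ends 3.06 kb before it. Lta, which encodes lymphotoxin alpha, had 26 and 68 counts, a ratio of 2.44 (1.53 to 3.99), but its mean was below 1 CPM. Ltb, whose product anchors lymphotoxin to the lymphocyte surface, was more abundant per length, with 1519 and 2283 counts, or 26.2 and 36.7 CPM. Its ratio of 1.40 (1.31 to 1.5) missed 1.5-fold, although with library totals or the upper quartile it was called higher. All 3 neighbours were thus above 1, by different amounts. Tnfsf14, the gene of LIGHT, which binds the lymphotoxin beta receptor and HVEM, had 216 and 504 counts. Its ratio was 2.17 (1.85 to 2.56), from 3.73 to 8.10 CPM.

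The sequences before the starts of these 4 ligand genes are shown because 3 of them are neighbours with ratios above 1 in the same comparison. They come from RefSeq on GRCm38.p6, read 5′ to 3′ on the strand of the gene, and stop before the first annotated exon base of the gene. Capitals mark matches on either strand to the NF-kB consensus (in Ltb), the AP-1 motif TGANTCA (in Tnfsf14) or the TATA box TATAAA (in Tnf and Lta).
Tnf, chr17:35202008-35202257, minus strand: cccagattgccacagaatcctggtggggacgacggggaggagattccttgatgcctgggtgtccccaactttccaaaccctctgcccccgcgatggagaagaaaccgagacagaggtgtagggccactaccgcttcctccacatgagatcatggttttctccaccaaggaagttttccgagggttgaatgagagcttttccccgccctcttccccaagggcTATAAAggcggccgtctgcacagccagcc
Lta, chr17:35205352-35205601, minus strand: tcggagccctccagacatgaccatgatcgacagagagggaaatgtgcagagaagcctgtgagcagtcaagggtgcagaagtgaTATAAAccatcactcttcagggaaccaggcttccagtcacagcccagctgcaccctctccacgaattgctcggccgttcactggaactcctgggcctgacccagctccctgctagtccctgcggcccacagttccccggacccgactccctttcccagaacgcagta
Ltb, chr17:35194257-35194438, plus strand: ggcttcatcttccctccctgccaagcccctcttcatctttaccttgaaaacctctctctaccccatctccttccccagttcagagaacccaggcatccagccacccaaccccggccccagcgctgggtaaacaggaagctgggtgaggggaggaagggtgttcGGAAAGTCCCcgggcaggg
Tnfsf14, chr17:57194182-57194431, minus strand: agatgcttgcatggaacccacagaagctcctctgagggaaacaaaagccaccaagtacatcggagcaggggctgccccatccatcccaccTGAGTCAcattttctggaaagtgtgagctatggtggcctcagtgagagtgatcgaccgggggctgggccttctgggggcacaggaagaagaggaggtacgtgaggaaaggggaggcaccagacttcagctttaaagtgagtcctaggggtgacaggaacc

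In Tnf the TATA box began 29 bases before the start site, and in Lta 167 bases before it. The NF-kB match of Ltb began 87 bases before its RefSeq start and lay on the opposite strand, and the AP-1 match of Tnfsf14 began 160 bases before its start. In windows of 250 bases, 5.0% of the 32851 promoters of the table held an NF-kB match, 6.75% an AP-1 match and 12.4% a TATA box. Of 38 promoters found for 34 of the members, 4, 6 and 7 held them. The 13 promoters of 11 higher members included 1 with an NF-kB match (Tnfrsf25), 2 with an AP-1 match (Tnfsf13b and Tnfsf14) and 2 with a TATA box (Tnf and Eda2r). The matches of Tnfrsf25 and Tnfsf13b lie past the first annotated exon base of the gene. None of the 3 promoters matched to lower members held any of the motifs. A match describes letters in a window and is not evidence of a bound site.

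The receptors of TNF and the lymphotoxins included the 2 most abundant receptors of the family per length, and 3 of 4 had ratios below 1, unlike their ligands. Tnfrsf1a, the death domain receptor of TNF present on most cells (ENSMUSG00000030341, chromosome 6, 125349362 to 125362484, plus strand), had 12706 and 7921 counts. It was 1.72-fold lower (1.67 to 1.77), from 219 to 127 CPM. Ltbr, the lymphotoxin beta receptor of stromal and myeloid cells, lies 35.5 kb from it on chromosome 6 and had 7839 and 5345 counts, 1.57-fold lower (1.52 to 1.63), from 135 to 85.9 CPM. Scaling ended both calls: with library totals the ratios were 0.682 for Tnfrsf1a and 0.745 for Ltbr, still below 1. Cd27, the next member along this stretch, had 363 and 526 counts, or 6.26 and 8.46 CPM, and a ratio of 1.35 (1.18 to 1.55), so the neighbours there did not differ in the same direction.

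Tnfrsf1b, the second TNF receptor, typical of leukocytes and endothelium, had 4108 and 3585 counts, 70.9 and 57.6 CPM, with a ratio of 0.813 (0.778 to 0.851). Tnfrsf14 encodes HVEM, which binds LIGHT, and was the receptor of this group with a ratio above 1. It had 506 and 886 counts, or 8.73 and 14.2 CPM, a ratio of 1.63 (1.46 to 1.82) that became 1.30 with the length trend removed.

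Because ligand and receptor are read in the same library, their quotient does not depend on scaling. Per kilobase of exon, the control library held 201 Tnfrsf1a counts for each Tnf count and the PM2.5 library 29.3, so the quotient of Tnf to Tnfrsf1a was 6.86-fold higher (4.83 to 9.94). For Tnf to Tnfrsf1b it was 4.90-fold higher (3.44 to 7.12). Ltb to Ltbr went from 0.301 to 0.663, 2.20-fold higher (2.05 to 2.37), and Tnfsf14 to Ltbr was 3.42-fold higher (2.90 to 4.05). LIGHT and HVEM were both higher, and the quotient of Tnfsf14 to Tnfrsf14 differed less, by 1.33-fold (1.09 to 1.63). In both libraries each of these receptors stayed more abundant per length than its ligand. Transcript quotients do not measure protein, and the ligands and receptors may come from different cells.

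**Figure D3:**
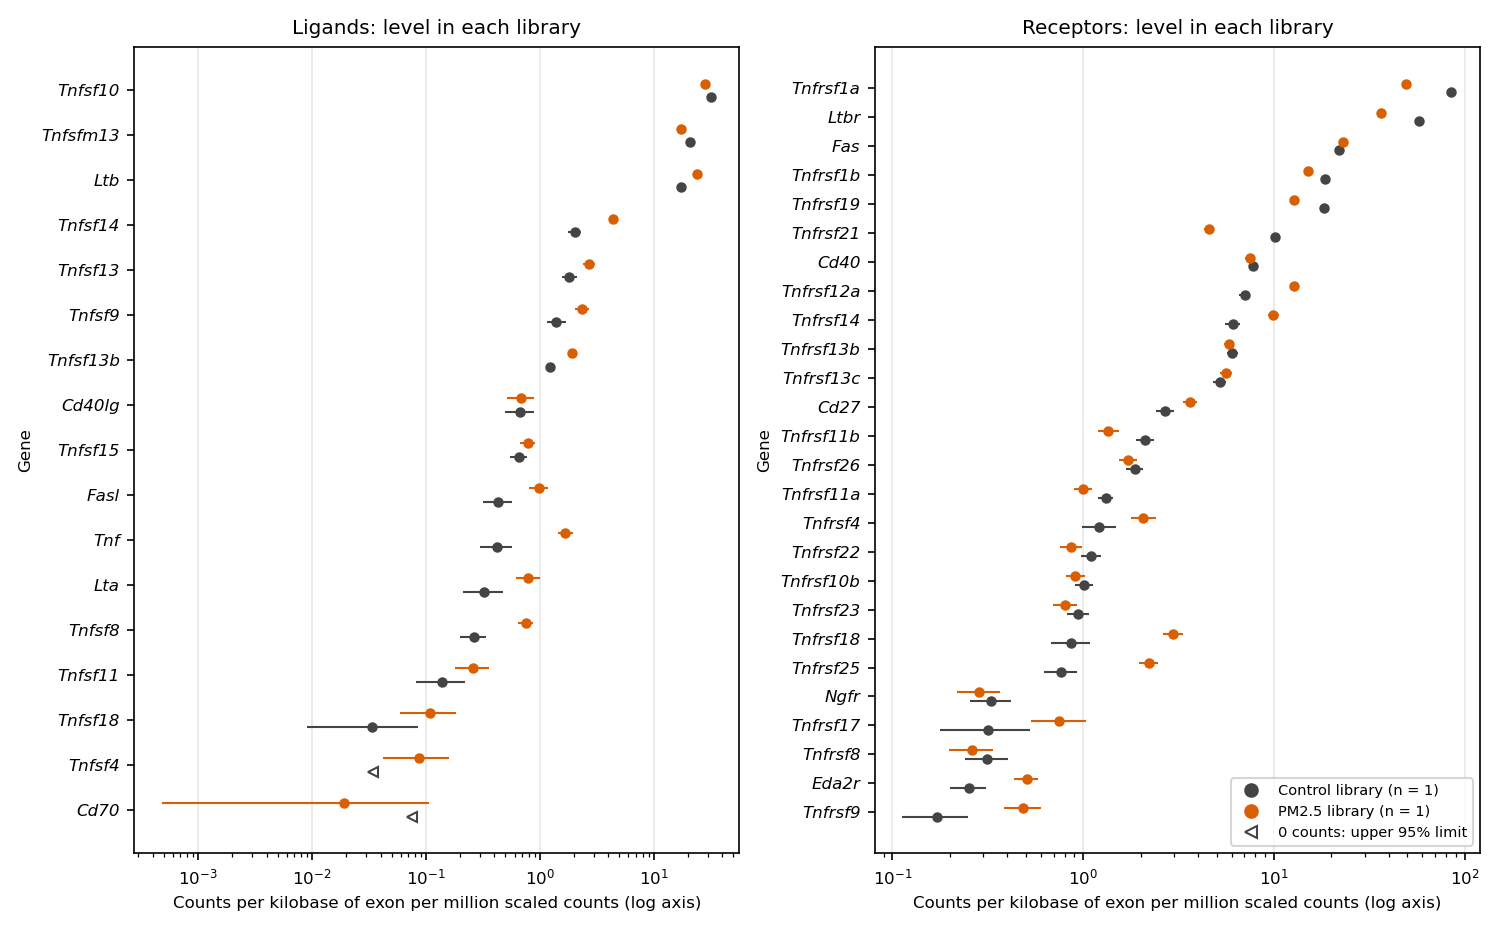
Level of each member in CPM per kilobase of merged exons (log axis), in the control library (grey) and the PM2.5 library (orange), with exact 95% Poisson intervals, ordered by the control level. Among receptors Tnfrsf1a was first in both libraries, at 84.6 and 49.1, and among ligands Tnfsf10, at 31.7 and 28.4. Triangles are upper limits for 0 counts.

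Among the death ligands, abundant TRAIL was nearly level and the rare Fas ligand was higher. Tnfsf10, which encodes TRAIL, was the most abundant ligand per length, with 9686 and 9291 counts, 167 and 149 CPM, at a ratio of 0.894 (0.869 to 0.920). Fasl, the ligand with which cytotoxic lymphocytes engage Fas, had 48 and 118 counts, 0.828 and 1.90 CPM, a ratio of 2.29 (1.63 to 3.28). Like Tnf, it passed the filter only through the PM2.5 library, so its ratio had to be above 1. Tnfsf15, the gene of TL1A, had 127 and 163 counts, 2.19 and 2.62 CPM, and the interval of its ratio of 1.20, 0.943 to 1.52, included 1.

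Their receptors split as well. Fas, which triggers apoptosis through FADD, had 2620 and 2966 counts, 45.2 and 47.7 CPM, with a ratio of 1.06 (1.0 to 1.11). Tnfrsf10b, the mouse TRAIL death receptor, had 320 and 309 counts, 5.52 and 4.97 CPM, and a ratio of 0.900 (0.767 to 1.06). The quotient of Tnfsf10 to Tnfrsf10b was 31.3 in the control and 31.1 in the PM2.5 library. Tnfrsf25, the TL1A receptor of T cells also called DR3, had 101 and 313 counts, a ratio of 2.89 (2.30 to 3.65) from 1.74 to 5.03 CPM. The quotient of Tnfsf15 to Tnfrsf25 accordingly had a ratio of 0.414 (0.296 to 0.579).

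Tnfrsf21, also called DR6, a death domain receptor without a family ligand in these lists, was the member furthest below 1 (ENSMUSG00000023915, chromosome 17, 43016555 to 43089189, plus strand). It had 2399 counts in the control and 1166 in the PM2.5 library, 41.4 and 18.7 CPM, and was 2.21-fold lower (2.06 to 2.37). Its ratio ran from 0.449 to 0.531 over the scalings. Ngfr, the neurotrophin receptor p75, was rare with 66 and 61 counts, 1.14 and 0.981 CPM, at a ratio of 0.861 (0.598 to 1.24).

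Decoy receptors bind ligands without passing on a full signal. The TRAIL decoys Tnfrsf22 and Tnfrsf23 and their neighbour Tnfrsf26 form a cluster on chromosome 7. Tnfrsf22 had 270 and 227 counts (4.66 and 3.65 CPM), a ratio of 0.784 (0.654 to 0.938). Tnfrsf23 had 216 and 198 counts (3.73 and 3.18 CPM), a ratio of 0.854 (0.701 to 1.04). For Tnfrsf26, with 348 and 345 counts (6.0 and 5.55 CPM), the ratio was 0.924 (0.794 to 1.08), so all 3 lay a little below 1. Tnfrsf22 and Tnfrsf23 are close copies: 12.6% of the 125-nt runs of Tnfrsf22 and 6.72% of those of Tnfrsf23 occur in transcripts of other genes, so their separate values are uncertain. Tnfrsf11b, which encodes osteoprotegerin, the decoy of RANKL, was the member of this group in the lower class. It had 346 and 237 counts, 5.97 and 3.81 CPM, and was 1.57-fold lower (1.32 to 1.86), a call that was lost with library totals at a ratio of 0.749.

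RANKL itself, Tnfsf11, an osteoclast factor also made by lymphoid cells, was scarce at 18 and 36 counts, with a mean below 1 CPM. The ratio of Tnfsf11 was 1.86 (1.03 to 3.49). Its signalling receptor RANK, Tnfrsf11a, had 457 and 372 counts, 7.88 and 5.98 CPM, with a ratio of 0.759 (0.660 to 0.872). The quotient of Tnfsf11 to Tnfrsf11b was 2.92-fold higher (1.57 to 5.59) in the PM2.5 library, with 5.22 osteoprotegerin counts per RANKL count per length against 15.3 in the control.

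Fn14, the receptor of TWEAK, was higher. Tnfrsf12a, its gene, had 785 and 1542 counts, 13.5 and 24.8 CPM, a ratio of 1.83 (1.68 to 2.0). Per length it was the most abundant member in the higher class, at 7.01 and 12.8 CPM per kilobase. Its ligand could not be followed: the identifier of Tnfsf12 is not among those counted, and 731 nt of its exons lie within Tnfsfm13, a readthrough gene joining TWEAK and APRIL on the same strand. Tnfsfm13 had 2727 and 2387 counts, 47.0 and 38.4 CPM, at a ratio of 0.816 (0.772 to 0.862), and reads of Tnfsf12 cannot be told apart in it.

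The B cell ligands BAFF and APRIL sustain B cells and plasma cells. Tnfsf13b, the gene of BAFF, had 491 and 818 counts, 8.47 and 13.2 CPM, a ratio of 1.55 (1.39 to 1.74). Tnfsf13, the gene of APRIL, had 173 and 274 counts, 2.98 and 4.41 CPM, a ratio of 1.48 (1.22 to 1.80), just short of the size and past it with library totals, the upper quartile, protein-coding genes alone and the thinned control library. Its value is uncertain because 60% of its exon length is shared with Tnfsfm13 on the same strand and 13.5% with the antisense gene Tnfsf13os, which had 1 count in the control and 168 in the PM2.5 library. The ratio of Tnfsf13os was 157 (27.7 to 6221). Whether the counting used strand is not given in the sources used here.

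Of the receptors for BAFF and APRIL, both measured ones were close to level. Tnfrsf13b, which encodes TACI, had 995 and 1023 counts, 17.2 and 16.4 CPM, a ratio of 0.958 (0.877 to 1.05). Tnfrsf13c, the BAFF receptor of B cells, had 616 and 715 counts, 10.6 and 11.5 CPM, a ratio of 1.08 (0.970 to 1.21). Tnfrsf17, the plasma cell receptor BCMA, had 15 and 38 counts, a ratio of 2.36 (1.27 to 4.62) at a mean below 1 CPM. Beside this, 9 of 12 B cell markers were higher and none lower, against 14.9% and 19.1% of all measured genes. The 12 markers summed to 322 and 544 CPM, with none at 0. Of 10 markers of thymus and lymph node stroma, 2 were measured and both were higher, with sums of 9.61 and 23.6 CPM. Of these 2, Cr2 is also in the B cell list. Aire, Foxn1, Madcam1 and Rag2 were at 0 in at least 1 library. The part of these cells in the ratios of the B cell ligands and receptors was not tested.

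Ratios of the measured costimulatory genes of T cells and antigen presenting cells ran from 0.958 for Cd40 to 3.43 for Tnfrsf18. Tnfrsf18 encodes GITR, a receptor of regulatory and activated T cells (ENSMUSG00000041954, chromosome 4, 156026164 to 156028895, plus strand). It had 76 and 280 counts, 1.31 and 4.50 CPM, a ratio of 3.43 (2.66 to 4.49). The antisense gene Gm16008 covers 27.2% of its exons and had 16 and 95 counts, and without strand the reads of both cannot be told apart. Tnfrsf4, the OX40 receptor 9.55 kb away, had 96 and 176 counts, 1.66 and 2.83 CPM, a ratio of 1.71 (1.33 to 2.21), or 1.35 with the length trend removed. Tnfrsf9, the 4-1BB receptor, had 27 and 82 counts, a ratio of 2.83 (1.81 to 4.55) at a mean below 1 CPM. Tnfrsf8, the gene of CD30, went the other way with 63 and 56 counts at a mean below 1 CPM. Its interval of 0.568 to 1.21 included 1.

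Among the matching ligands, Tnfsf8, the CD30 ligand, had 58 and 178 counts, 1.0 and 2.86 CPM, a ratio of 2.86 (2.12 to 3.92). The quotient of Tnfsf8 to Tnfrsf8, whose mean was below 1 CPM, was 3.45-fold higher (2.11 to 5.65). Tnfsf9, the 4-1BB ligand, had 105 and 188 counts, 1.81 and 3.02 CPM, a ratio of 1.67 (1.31 to 2.14) and of 1.30 with the length trend removed. The gene Gm11110 covers 14.9% of its exons on the opposite strand and had 35 and 37 counts. The quotient of Tnfsf9 to Tnfrsf9 had a ratio of 0.590 (0.345 to 0.990), since the receptor differed more. The OX40 ligand Tnfsf4 had no count in the control and 10 in the PM2.5 library, at least 2.09-fold higher by the lower end of its counting interval and 3.11-fold higher against a floor of 3 counts per library. Tnfsf18, the GITR ligand, had 4 and 14 counts, a ratio of 3.26 (1.02 to 13.6), and Cd70, the CD27 ligand, 0 and 1. For Cd70 no fold is given.

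The CD40 pair was level. Cd40, a receptor of B cells and macrophages, had 1538 and 1580 counts, 26.5 and 25.4 CPM, a ratio of 0.958 (0.892 to 1.03). Cd40lg, which activated T helper cells use to engage it, had 49 and 53 counts at a mean below 1 CPM. Its interval was 0.671 to 1.52. T cell markers were close to level too: 2 of 14 measured were higher and 1 was lower, their median log2 ratio was 0.06, and they had sums of 137 and 144 CPM. Cd8a had 445 and 826 counts and Cd4 801 and 641. Foxp3, the factor that defines regulatory T cells, had 79 and 53 and was the 1 lower marker. It passed the filter only through the control library, so its ratio had to be below 1. NK cell markers differed more, with 9 of 12 higher, none lower and sums of 62.7 and 140 CPM. Among all measured genes 14.9% were higher and 19.1% lower. None of the T or NK cell markers was at 0. Their part in the ratios of Fasl, Tnfrsf18, Tnfrsf4, Tnfrsf9 and Tnfrsf25 was not tested.

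Of the ectodysplasin-like receptors, 1 was higher and the other had a ratio below 1 that missed the lower class. Eda2r, a receptor of ectodysplasin A2 and a known target of p53, had 86 and 185 counts, 1.48 and 2.97 CPM, a ratio of 2.01 (1.54 to 2.62). Tnfrsf19, also called TROY, an epithelial receptor, had 5006 and 3746 counts, 86.3 and 60.2 CPM, and a ratio of 0.697 (0.668 to 0.728). The genes of the superfamily outside the rule were Eda, the ectodysplasin gene, 1.68-fold lower (1.44 to 1.96), Relt, 1.75-fold higher (1.55 to 1.97), and Edar, which was neither.

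Markers of several cell types differed between the same libraries, of whose measured genes 14.9% were higher and 19.1% lower. Neutrophil markers were higher in 13 of 14 genes, with sums of 599 and 1807 CPM. Endothelial markers were lower in 11 of 14 genes and higher in none, with sums of 6835 and 3204 CPM, and fibroblast and pericyte markers were lower in 8 and higher in 4 of 13, with sums of 7922 and 5123 CPM. Of 13 monocyte and interstitial macrophage markers 5 were higher and 1 lower, with sums of 1037 and 1095 CPM, of which Apoe alone gave 579 and 567. Of 12 alveolar macrophage markers 2 were higher and 1 lower, with sums of 944 and 982 CPM. Airway secretory and club cell markers were higher in 9 of 12 genes and lower in none, with sums of 21973 and 34987 CPM. Of 7 measured red blood cell markers 6 were lower and 1 higher, with sums of 5816 and 2701 CPM. Fat cell markers were higher in 11 and lower in 2 of 13 genes, with sums of 411 and 992 CPM. Passing the filter only through the PM2.5 library, 1 neutrophil marker (Ly6g), 2 fat cell markers and 1 airway marker had to have ratios above 1. Of the red blood cell markers, 1 passed only through the control library and had to have a ratio below 1. Car4 and Cidec are alveolar macrophage markers that are also in the endothelial and fat cell lists, in that order. No marker of these lists was at 0, and their part in the higher Tnf and Tnfsf14, in the lower Tnfrsf1a, Ltbr and Tnfrsf21, and in Tnfrsf12a and Tnfrsf19 was not tested.

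**Figure D4:**
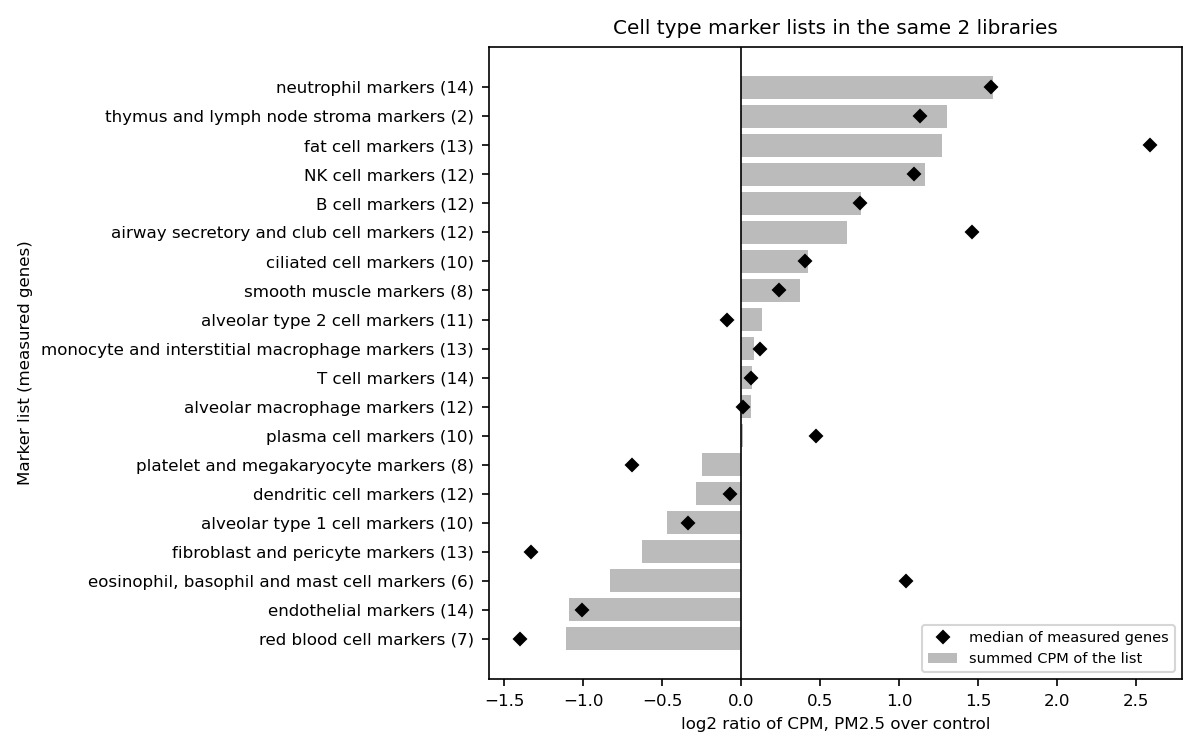
log2 ratio, PM2.5 over control, of the summed CPM of each cell type marker list (bars) and the median over its measured genes (diamonds), with the number of measured genes in brackets. Neutrophil, NK and B cell lists lie above 0 on both measures, endothelial and red blood cell lists below 0 on both, and the T cell list is near 0.

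Inside the cell, the receptors act through adaptors, kinases and NF-kB. Of 26 adaptors and kinases of the receptor complexes, all measured, none was higher and 3 were lower, with a median log2 ratio of -0.12. The caspase inhibitor Cflar, with 11616 and 7654 counts, was 1.63-fold lower (1.58 to 1.68). Ripk1, the kinase of the first TNF receptor complex, was 1.61-fold lower (1.52 to 1.72), and Tab2, a partner of the kinase TAK1, 1.51-fold lower (1.47 to 1.56). These calls depend on the scaling and on the length trend. With library totals 3 genes of the list were higher and 0 lower, beside 23.8% and 9.9% of all measured genes. With the length trend removed 1 was higher and 0 lower, beside 14.2% and 16.6%.

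Among 16 NF-kB subunits and inhibitors, 4 (25%) were lower and 1 (6.25%) was higher, with a median of -0.10. The shares of all measured genes were 19.1% and 14.9%, and their median was -0.09. Nfkb1, the p50 precursor, was 1.79-fold lower (1.73 to 1.84) and Rela, the p65 subunit, 1.57-fold lower (1.51 to 1.62). The inhibitor Nfkbia, with 15623 and 10913 counts, was 1.54-fold lower (1.5 to 1.57), and Tnip1, which restrains the pathway with A20, 2.18-fold lower (2.06 to 2.30). Nfkbiz, an inducible nuclear regulator of NF-kB, stood alone on the higher side with 741 and 2581 counts, a ratio of 3.25 (2.99 to 3.53). With library totals 2 genes of the list were higher and 2 lower, beside 23.8% and 9.9% of all measured genes.

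The list for cutting and processing of ligands and receptors had 8 measured genes, with a median of -0.53. Beside 19.1% lower and 14.9% higher among all measured genes, 4 of the list (50%) were lower and none higher. They were the convertase Furin, 2.16-fold lower (2.09 to 2.23), Frmd8, a cofactor of TNF shedding, 1.67-fold (1.59 to 1.75), Adam10, 1.59-fold (1.54 to 1.64), and Adam17, the TNF converting enzyme, 1.52-fold (1.47 to 1.58). Adam17 had 6740 and 4745 counts. Rhbdf1 and Rhbdf2, which carry ADAM17 to the cell surface, had ratios of 0.995 and 0.903. With library totals 1 gene of the list was lower, beside 9.9% of all measured genes.

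Of 25 genes known to be induced by TNF, 16 were measured. The higher class took 6 of them (37.5%), against 14.9% of all measured genes. The lower class took none, against 19.1%. The median log2 ratio of the 16 was 0.36, beside -0.09 for all measured genes. The higher genes were Ccl2, a monocyte chemokine, at 4.0-fold (2.62 to 6.33), Csf2 at 3.13-fold (2.17 to 4.60), the prostaglandin synthase Ptgs2 at 2.14-fold (1.92 to 2.4), the AP-1 subunit Junb at 1.85-fold (1.77 to 1.93), Mmp9 at 1.80-fold (1.72 to 1.88) and Lcn2 at 1.55-fold (1.5 to 1.59). Ccl2 and Csf2, at 0.466 and 0.673 CPM in the control, passed the filter only through the PM2.5 library, so their ratios had to be above 1. Mmp9 is also in the neutrophil list. Removal of the length trend left 5 of the list in the higher class, beside 14.2% of all measured genes. Library totals put 9 there, beside 23.8%. Icam1, an adhesion molecule and the gene of the list with the highest CPM, had 25619 and 22680 counts, 442 and 365 CPM, at a ratio of 0.825 (0.810 to 0.840). Other inducers act on these genes as well, so the list is not specific to TNF.

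**Figure D5:**
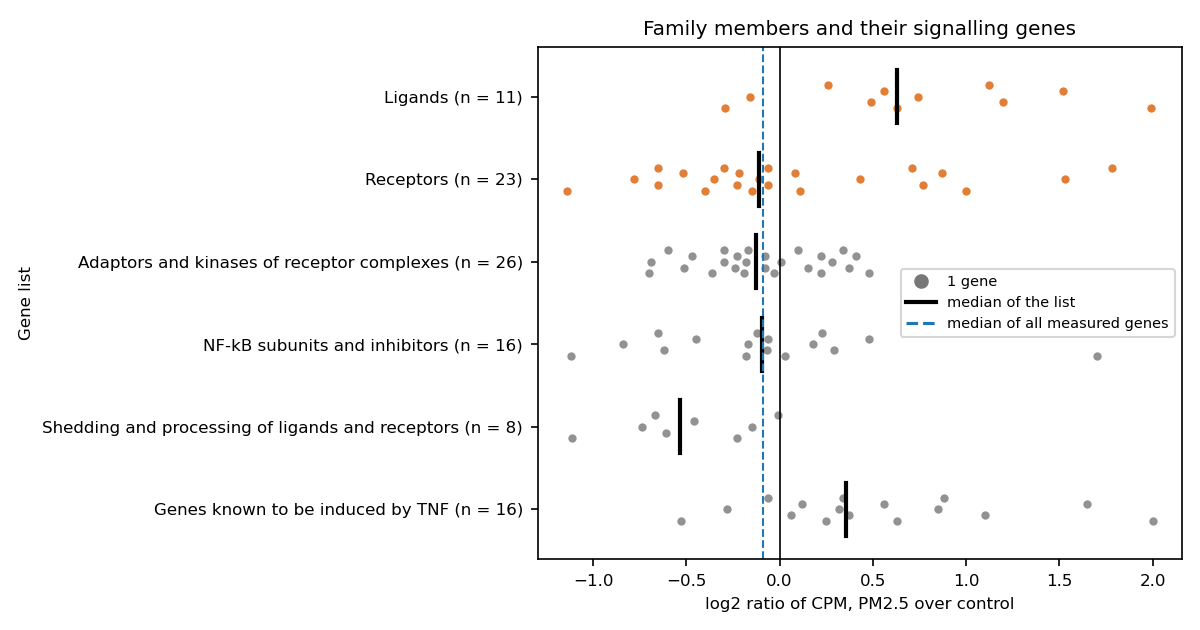
log2 ratio of CPM, PM2.5 over control, for the measured ligands and receptors of the family (orange) and 4 lists of signalling genes (grey). Each point is a gene, bars are medians and the dashed line is the median of all measured genes at -0.09. The ligand median is 0.63 (0.38 with the length trend removed), that of TNF-induced genes 0.36, and that of processing genes -0.53.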

How the data were processed

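Lung mRNA was read on a HiSeq2500 as paired reads of 125 bp, per the labels' protocols. TopHat2 2.1.1, HTSeq 0.6.0 and mm10 appear in the submitters' processing notes. Annotation release and strand setting were not given in the sources used here. As deposited by the authors, the values are raw read counts per Ensembl identifier. A blank line in the PM2.5 file was dropped.

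Symbols, positions and merged exon lengths came from GENCODE M21 (GRCm38, which is mm10). Library sizes were multiplied by TMM factors from edgeR 4.0.16, 0.923 (control) and 1.08 (PM2.5). Intervals of ratios are exact (95%, Clopper-Pearson, from each gene's share of counts in the PM2.5 library), and those of quotients are conditional exact. Reads are not independent molecules, so intervals cover counting error only. For ratios, zero counts were replaced by a floor of 3 counts, 0.0517 CPM (control) or 0.0482 CPM (PM2.5). The ends of intervals used the counts without this floor. With 1 library per group no test was made. All members were named. Of each signalling list the genes in the higher or lower class (at most 6) and its 2 most abundant were named. Rhbdf1, Rhbdf2, Edar, Apoe, Cd8a, Cd4 and Foxp3 were named after their values were seen. Members and lists were chosen with earlier results of these data known. The alternatives were library totals, upper quartile, size factors of DESeq2 1.42.0, TMM without the 100 most abundant genes, a thinned control library, removal of the length trend (lowess, statsmodels 0.14.6), other filters and a 2-fold size. The steps were tested on simulated data. Software was R 4.3.3 and Python 3.11.15 with scipy 1.17.1, pandas 2.3.3, numpy 2.4.6 and matplotlib 3.10.9. Promoter sequences came from the RefSeq table (GRCm38.p6), which matched 34 of 44 members.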

Additional observations from a re-analysis of the deposited data

How the results depend on the processing

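No ratio of a measured member in the higher or lower class crossed 1 under any of the 7 alternatives that gave member ratios (4 other scalings, protein-coding genes alone, a thinned control library and removal of the length trend). Library totals gave 15 higher members and 1 lower, beside 23.8% and 9.9% of all measured genes, and a receptor median of 0.12 log2. There were then 3456 higher and 1440 lower genes (main: 2163 and 2776), so 70.6% of the genes called were higher in place of 43.8%. The upper quartile gave 14 higher members and 2 lower, beside 19.5% and 13.2% of all measured genes. Its receptor median was 0.02, and 59.7% of called genes were higher. Protein-coding genes alone gave 13 higher members and 2 lower, beside 16% and 15.4% of the genes measured in that setting. The share of called genes that were higher was 59.0% with at least 1 count in either library, 28.3% at 10 CPM and 54.6% at 2-fold. The median of all genes was 0.14 under total-count scaling and 0.05 under the upper quartile. With the length trend removed the member median was -0.06 (main: 0.10) and the ligand median 0.38 (main: 0.63). With at least 1 count in either library, 4471 of 24315 genes were higher (18.4%) and 12.8% lower, the median of all genes was 0.05, and of 43 members 18 were higher and 4 lower. A mean of at least 10 CPM left 15 members, 3 higher and 3 lower, with a median of -0.06 (ligands 0.16), beside 866 higher (8.31%) and 2196 lower genes (21.1%). At 2-fold, 7 members were higher and 1 lower, beside 1053 and 877 genes (7.25% and 6.04%). In all, 50 of 238 member ratios under alternatives left their counting interval and 0 changed side while in a class. No paired analysis was possible because each group has 1 library, and for the same reason no replicate could be left out. Depth limits the 9 members below 1 CPM, whose intervals are wide, and Tnf, Fasl and Tnfsf8, which rest on 40, 48 and 58 control counts.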
